A study of Mus musculus with 6 samples.

Results

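The cytosolic translation initiation factors (eIF) and elongation factors (eEF) were examined in the liver of neonatal mice with and without an activated human *SRY* transgene. Members were all probes whose gene symbol in the array table begins with Eif or Eef followed by a digit, leaving out the cap-binding gene *Eif4e*, the Eif4ebp inhibitors and the sex-linked *Eif2s3x* and *Eif2s3y*. The rule took 91 of 25697 probes, under 56 of 18138 symbols. By current RefSeq symbol these were 53 genes, since 12 of the 56 symbols were older names. Of the 53 genes, 6 carry the prefix but are best known for another role, namely the Argonaute genes *Ago1* to *Ago4* (listed as Eif2c), the exon junction helicase *Eif4a3* and the tRNA synthetase scaffold gene *Eef1e1*, and they were kept as a group of their own.

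Total RNA of the liver was hybridised to single-colour Illumina bead arrays, 1 array per mouse, for 3 hSRY-ON and 3 hSRY-OFF mice, all male, of the FVB/N background (FVB in the labels) and at postnatal day 6. The hSRY-ON mice descended from 1 responder line with a single-copy Signalox-hSRY cassette, in which Cre carried by the oocyte of a *Ddx4-Cre* mother had activated human *SRY* and *EGFP* under the ubiquitous CAG promoter, and the study chose hSRY-ON pups that had not inherited the *Ddx4-Cre* transgene. The methods use hSRY-OFF for Signalox-hSRY mice without recombination, and the labels add no further genotype for the arrayed controls. The comparison asked how the liver messenger RNAs of these factors differed once *SRY* was active throughout the body. The study also reported minimal suckling, slowed growth and fatty livers in hSRY-ON pups. The part of poor feeding, slowed growth and liver disease in the values below was not tested.

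A ribosome starts on a messenger RNA in ordered steps. The eIF2 complex brings the initiator tRNA and is recharged with GTP by eIF2B, eIF3 holds the small subunit and the other factors, the eIF4 proteins bind the cap and unwind the leader, and eIF1, eIF1A and eIF5 act during scanning and start codon choice. Kinases that phosphorylate the alpha subunit of eIF2 slow this cycle. During elongation eEF1A delivers aminoacyl-tRNA, the eEF1B subunits exchange its nucleotide, eEF2 moves the ribosome along and eIF5A assists at slow peptide bonds. The liver exports plasma proteins in bulk and depends heavily on this machinery, and many messages of ribosomal proteins and elongation factors carry a 5′ terminal oligopyrimidine tract.

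Values are log2 intensities after background correction and quantile normalization, and a difference is the hSRY-ON mean minus the hSRY-OFF mean. A probe was detected on an array when its deposited detection p-value was under 0.01, and was tested when detected on at least 3 of 6 arrays. Called means an adjusted p under 0.05 from limma over all 10734 tested probes, two-sided, and rose or fell is used of called probes only. Of the 91 member probes, 63 probes of 41 genes were tested and 28 were not. In whole livers, fewer cells of a type and less RNA per cell cannot be told apart.

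The promoters of 3 genes are shown because their probes, of *Eef1b2*, *Eef2* and *Eif3g*, were called with small p and kept the call, for at least 1 probe of each, under every alternative in which that probe was fitted. RefSeq on GRCm38.p6 gave, in each case, 250 bases before and 30 after the start. They lie at chr1:63176581-63176860 on the plus strand for *Eef1b2*, chr10:81176381-81176660 on the plus strand for *Eef2* and chr9:20898561-20898840 on the minus strand for *Eif3g*. Capitals mark matches to 4 motifs searched on both strands, CCGGAAG (an ETS core), TGACGT (a cAMP response half-site, which overlaps itself on the opposite strand in TGACGTCA), CACGTG (an E-box) and TGATGNAA (an ATF4-C/EBP composite). The motifs were chosen after these promoters had been looked at.
Eef1b2: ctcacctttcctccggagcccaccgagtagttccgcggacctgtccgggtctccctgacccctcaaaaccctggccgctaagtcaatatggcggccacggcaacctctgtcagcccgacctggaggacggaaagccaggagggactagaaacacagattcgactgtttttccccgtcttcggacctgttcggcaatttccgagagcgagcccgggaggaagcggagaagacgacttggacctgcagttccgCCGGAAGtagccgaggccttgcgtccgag
Eef2: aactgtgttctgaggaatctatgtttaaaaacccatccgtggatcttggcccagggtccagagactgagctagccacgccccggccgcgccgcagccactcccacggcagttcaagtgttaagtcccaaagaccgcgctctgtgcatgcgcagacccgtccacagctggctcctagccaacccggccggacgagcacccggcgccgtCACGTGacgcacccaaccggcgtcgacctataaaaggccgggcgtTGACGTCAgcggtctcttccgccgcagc
Eif3g: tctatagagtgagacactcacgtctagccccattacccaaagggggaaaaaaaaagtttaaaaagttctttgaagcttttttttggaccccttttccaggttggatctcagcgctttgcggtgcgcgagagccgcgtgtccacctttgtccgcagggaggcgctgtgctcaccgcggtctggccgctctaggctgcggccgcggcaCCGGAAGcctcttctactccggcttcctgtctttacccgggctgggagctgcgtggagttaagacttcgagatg
Among the 42 member genes with a promoter in the table, 35.7% held CCGGAAG, 19.0% TGACGT, 26.2% CACGTG and 2.38% TGATGNAA. Among the 6274 genes with a tested probe and a promoter the shares were 19.3%, 12.8%, 11.6% and 2.84%, and over all 27025 genes 9.48%, 8.13%, 7.71% and 4.32%. Within the members, CCGGAAG was held by 5 of 15 genes with a probe that rose and by 7 of 17 tested genes with no called probe. CACGTG was held by 4 of the 15 and 6 of the 17, and TGACGT by 4 of the 15 and 3 of the 17. A match is a description of these windows only.

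The array of hSRY-ON replicate 3 stood apart in neutrophil and myeloid precursor markers. It was the highest of the 6 arrays on 10 of 12 tested neutrophil probes, and their summed level was 16.80 there, 15.56 and 15.37 on the other hSRY-ON arrays and 15.89, 15.69 and 15.92 on the hSRY-OFF arrays. Without that array 26 member probes rose and 1 fell, and the risen share was 41.9%, beside 17.4% of all tested probes.

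Of the 63 tested probes, 30 probes of 19 genes rose in hSRY-ON livers, 1 fell and 32 did not pass the test. The risen share was 47.6%, where 15.8% of all tested probes rose. The fallen share was 1.59%, where 17.3% of all tested probes fell, and in either direction 49.2% were called against 33.1%. Differences were positive for 53 probes and negative for 10. Their median was 0.40, beside 0.02 over all tested probes, and they ran from -0.57 for the kinase gene *Eif2ak2* to 1.23 for an *Eef1b2* probe. The 3 hSRY-ON values lay above the 3 hSRY-OFF values for 39 probes and below them for 2, or 65.1% without overlap in either direction, where 50% of all tested probes did not overlap (25.4% above, 24.6% below). The median log2 intensity of the tested members on single arrays was 10.47, 10.34 and 10.42 in hSRY-OFF and 10.65, 10.63 and 10.66 in hSRY-ON livers, so that these 3 and 3 values did not overlap either. Leaving out the prefix matches with another main role left 60 tested probes, of which 29 rose and 1 fell, with a median of 0.39.

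**Figure D1:**
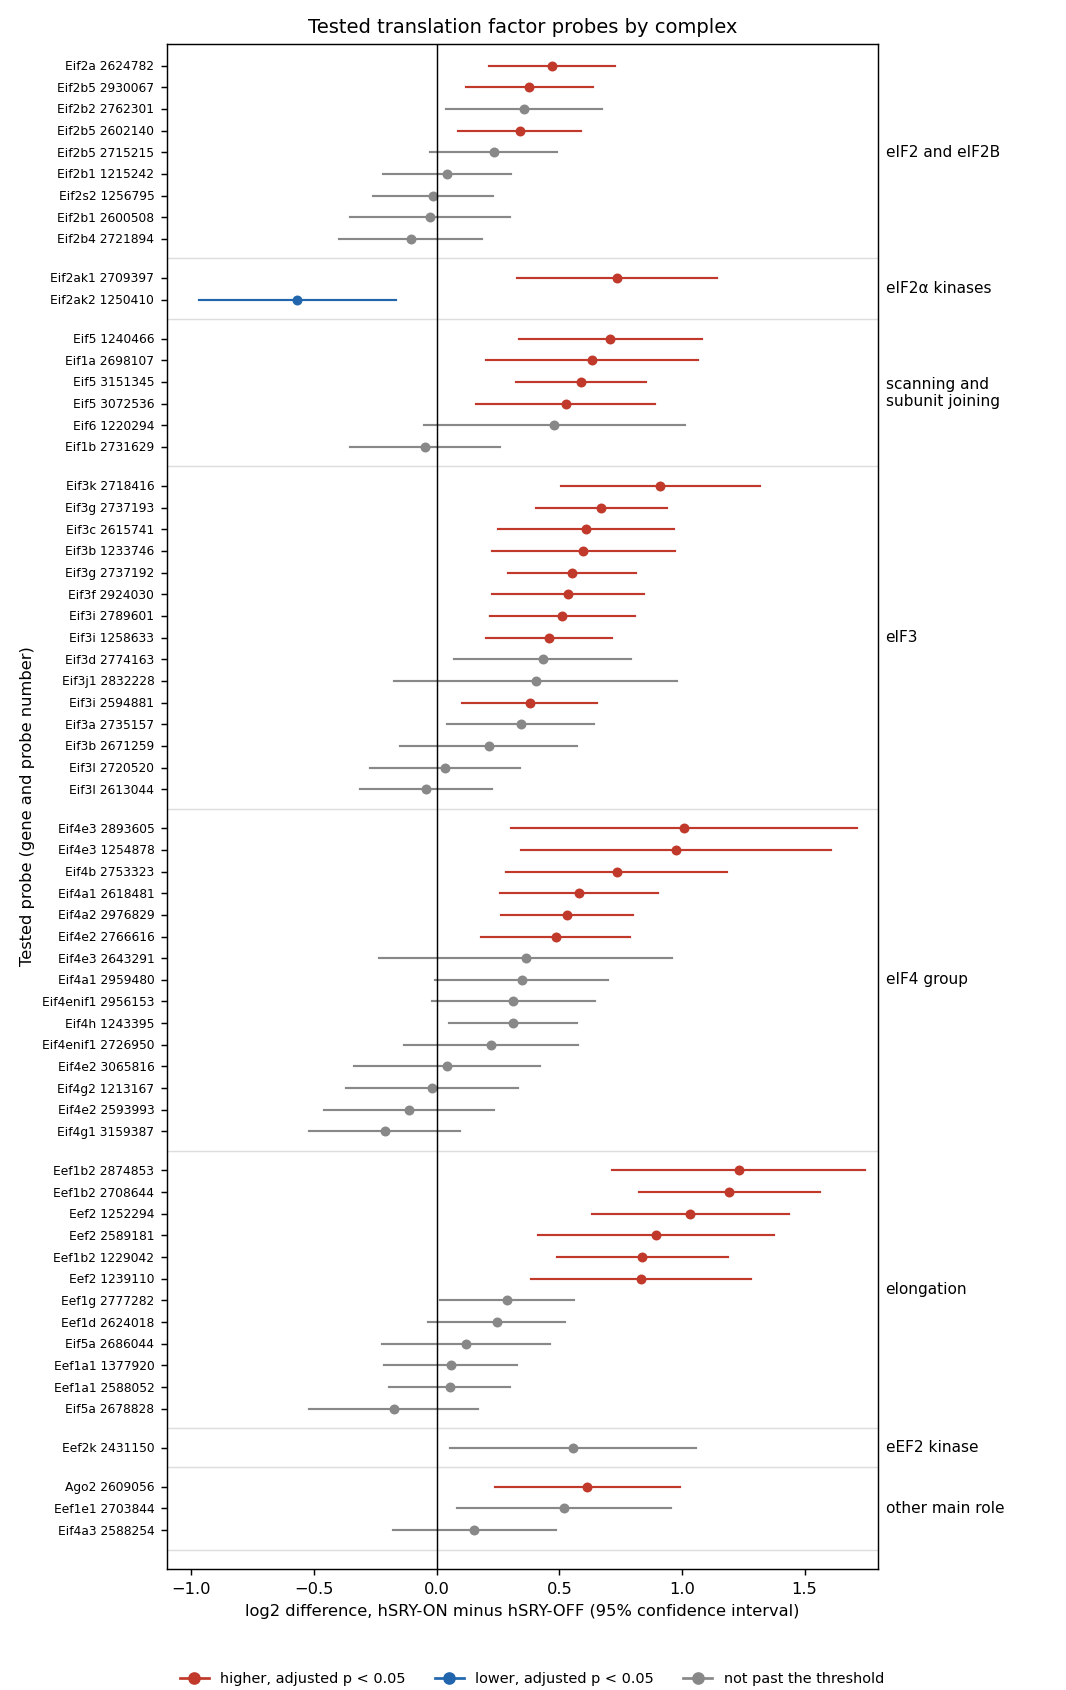
Log2 difference of hSRY-ON minus hSRY-OFF on the horizontal axis for each of the 63 tested probes, named by gene and probe number and grouped by complex, with points for the difference and lines for its 95% confidence interval (n = 3 arrays per group). Red marks the 30 probes that rose, blue the 1 that fell and grey the 32 not past the threshold, and the points lie right of 0 for 53 of them.

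How many calls were made depended on single arrays. Without hSRY-OFF replicate 2, 9 probes rose, without hSRY-OFF replicate 1, 10, and without hSRY-ON replicate 1, 16, while median scaling in place of quantile normalization gave 13, with the median over all tested probes at -0.04 in place of 0.02. In that order 14.3%, 15.9%, 25.8% and 20.6% of the tested member probes rose. Over all tested probes the risen shares in the same fits were 9.1%, 8.19%, 10.3% and 11.2%. Every called member kept its sign in each alternative in which it was fitted. The 6 probes that stayed past the threshold in all of those were the 3 of *Eef1b2*, 1 of *Eef2*, 1 of *Eif3g* and the 1 of *Eif3k*. Among the 63, 1 *Eif3b* probe passed the detection filter through hSRY-ON arrays alone, and requiring detection on all 6 arrays left 59 probes, of which 28 rose (47.5%, beside 16.4% of all probes so tested).

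**Figure D2:**
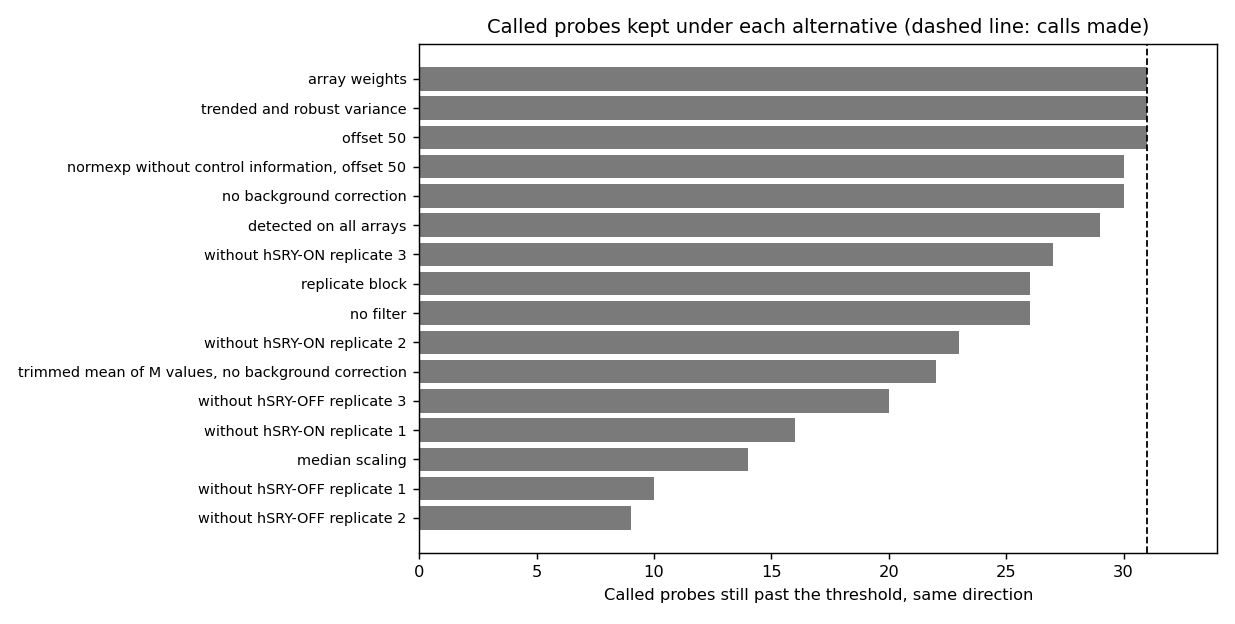
Number of the 31 called member probes that stayed past the threshold in the same direction (horizontal axis, probes) under each alternative setting (vertical axis). The dashed line stands at 31, and the shortest bars are those without hSRY-OFF replicate 2 (9 probes) and without hSRY-OFF replicate 1 (10 probes).

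Among the elongation factors, 6 of 12 tested probes rose (50%, beside 15.8% of all tested probes) and none fell. The median difference was 0.56, and all 6 risen probes belonged to *Eef1b2* and *Eef2*. *Eef1b2* encodes eEF1B alpha, a nucleotide exchange subunit for eEF1A. Its probe ILMN_2708644 read 9.67, 9.81 and 9.88 on the hSRY-OFF arrays and 11.08, 11.17 and 10.69 on the hSRY-ON arrays. The groups stood apart, with hSRY-ON replicate 3 the lowest of its group, and the difference was 1.19 ± 0.16 (SE, n = 3 per group), a 2.29-fold rise with limma's adjusted p = 0.00185. The bright *Eef1b2* probe ILMN_1229042 went from 12.40, 12.56 and 12.56 to 13.30, 13.59 and 13.14 (difference 0.84, adjusted p = 0.00571), and the dim probe ILMN_2874853 from 6.23, 6.83 and 6.92 to 7.86, 8.17 and 7.66 (1.23, adjusted p = 0.00586). All 3 probes of the gene thus rose without overlap, in a range of signal from near the detection limit to well above it.

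*Eef2*, the translocase of elongation, rose on all 3 of its probes. ILMN_1252294 read 10.55, 10.70 and 10.70 in hSRY-OFF and 11.79, 11.93 and 11.34 in hSRY-ON livers, a difference of 1.03 ± 0.17 (SE) and a 2.05-fold rise with limma's adjusted p = 0.00445. The probes ILMN_2589181 and ILMN_1239110 differed by 0.90 and 0.83 (adjusted p = 0.015 and 0.0152). On each of the 3 probes hSRY-ON replicate 3 was the lowest hSRY-ON array and still lay above every hSRY-OFF array. Without that array, which stood apart in neutrophil markers, the differences were 1.21, 1.13 and 1.05 for *Eef2* in the order named, and 1.34 for *Eef1b2* on ILMN_2708644. The calls of the latter 2 *Eef2* probes were lost without hSRY-OFF replicate 1 or 2 or hSRY-ON replicate 1, with adjusted p up to 0.0609 and 0.0623.

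The other elongation factors did not pass the test. The 2 tested probes of *Eef1a1*, the delivery factor itself, differed by 0.06 and 0.05 (95% intervals -0.21 to 0.33 and -0.19 to 0.30, adjusted p = 0.737 and 0.732). They were among the 24 brightest probes of every array, at 67.6% to 85.8% of the brightest signal, close to the top of the scale. *Eef1g*, an eEF1 scaffold subunit, read 14.12, 14.00 and 13.97 against 14.21, 14.39 and 14.35 (difference 0.29, adjusted p = 0.0968), and the exchange subunit gene *Eef1d* 12.68, 12.59 and 12.64 against 12.84, 12.78 and 13.02 (0.25, adjusted p = 0.152). Both thus stood above hSRY-OFF on all 3 hSRY-ON arrays but did not pass the threshold of adjusted p. The 2 probes of *Eif5a* differed by -0.18 and 0.12 (adjusted p = 0.388 and 0.564), with overlapping groups. *Eef2k*, the kinase that inhibits eEF2, read 6.43, 6.16 and 6.86 against 7.12, 6.75 and 7.24 (0.56 ± 0.21 SE, adjusted p = 0.0835), and its groups overlapped. It passed the threshold in 3 of 16 alternatives (limma's lowest adjusted p = 0.0298).

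**Figure D3:**
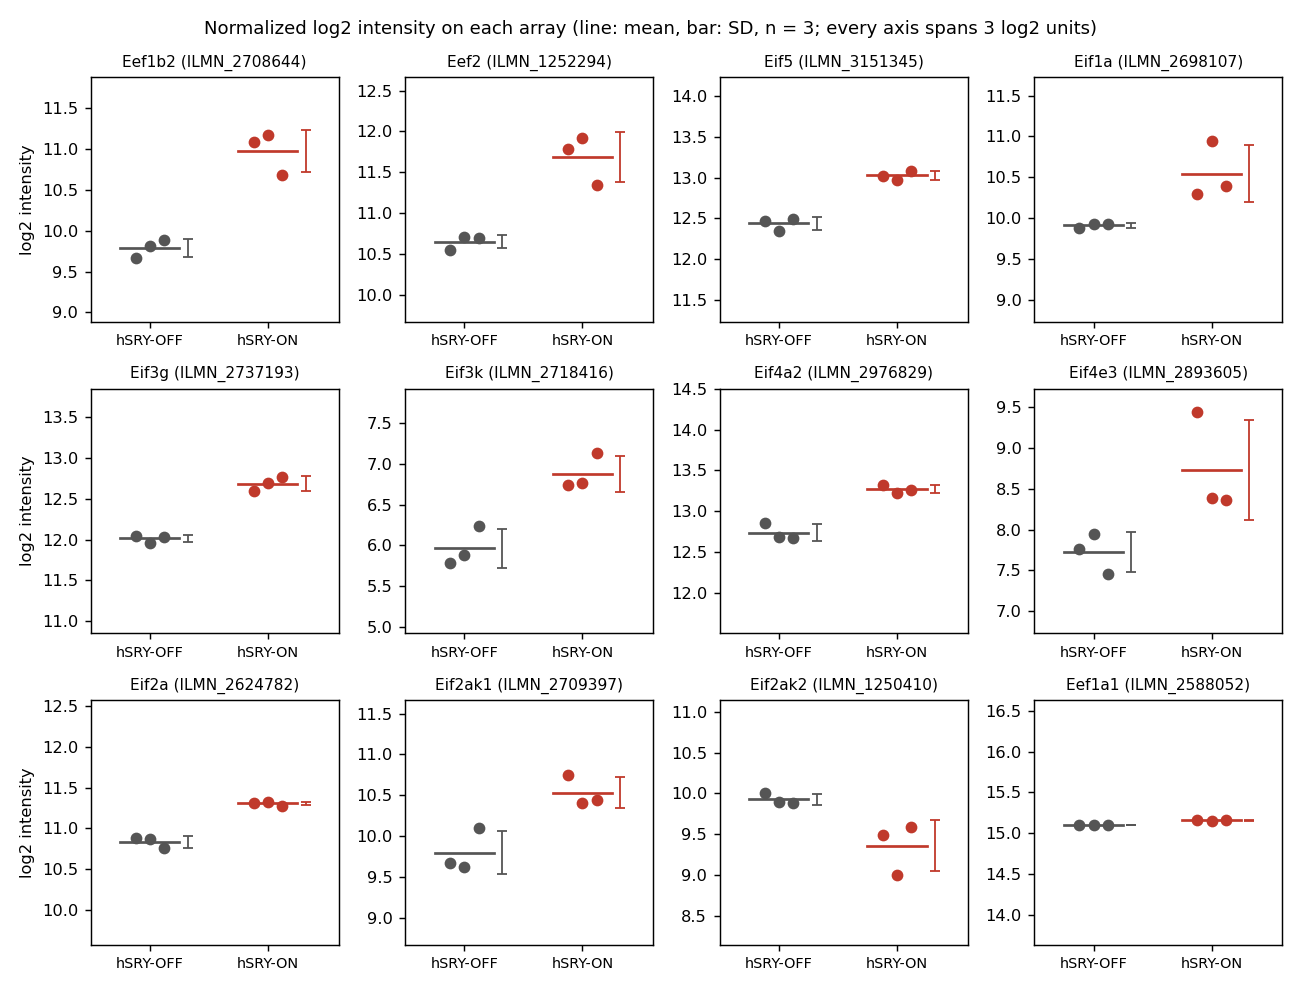
Normalized log2 intensity (vertical axes, each spanning 3 log2 units) on every hSRY-OFF and hSRY-ON array for 12 probes of 12 genes, with lines for the mean and bars for the SD (n = 3). The 2 groups are apart for each probe shown, with Eif2ak2 the only one lower in hSRY-ON. The Eef1a1 probe differs by 0.05, near the top of the scale, and its hSRY-OFF values are equal after quantile normalization. The groups overlap on the other tested Eef1a1 probe, which is not shown.

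The eIF3 complex had 9 of 15 tested probes higher, of 6 of its 10 tested genes, and none lower. That was a risen share of 60%, beside 15.8% of all tested probes. Among the 9, 1 probe of *Eif3b* entered the test through the hSRY-ON arrays alone, and with detection required on all arrays 7 of 12 probes rose. Its median difference was 0.46, and 11 of the 15 probes had all hSRY-ON values above all hSRY-OFF values, where 25.4% of all tested probes did. *Eif3g*, a subunit that acts in scanning, read 12.05, 11.96 and 12.04 against 12.59, 12.70 and 12.77 on ILMN_2737193, a difference of 0.67 ± 0.11 (SE, n = 3 per group) with limma's adjusted p = 0.00472. Its neighbouring probe ILMN_2737192 rose by 0.55 (adjusted p = 0.00944) and lost the call under median scaling (0.0856). *Eif3k* rose the most of the complex, from 5.78, 5.88 and 6.24 to 6.74, 6.77 and 7.13 (0.91 ± 0.17 SE, adjusted p = 0.00743), on a dim probe that was detected on 2 of the 3 hSRY-OFF arrays. Every hSRY-ON array lay above every hSRY-OFF array for both genes.

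Of the other eIF3 subunits, *Eif3i*, *Eif3f* and *Eif3c* rose on every tested probe. *Eif3i*, a WD-repeat subunit, rose on all 3 probes, by 0.46, 0.38 and 0.51 (adjusted p = 0.0173, 0.043 and 0.0192). *Eif3f* read 13.03, 13.26 and 13.13 against 13.78, 13.74 and 13.50 (0.53, adjusted p = 0.0194), and the core subunit gene *Eif3c* 8.39, 8.07 and 8.47 against 9.02, 8.74 and 8.998 (0.61, adjusted p = 0.0206). All of these were above hSRY-OFF on every hSRY-ON array, but each lost its call without at least 2 of the single arrays, hSRY-OFF replicate 1 among them (adjusted p up to 0.146). Median scaling also ended the calls of *Eif3f* and of all 3 *Eif3i* probes. The *Eif3i* probe ILMN_2594881 kept its call in only 7 of 16 alternatives (limma's adjusted p up to 0.238). The 2 probes of *Eif3b*, another core subunit, disagreed in call. ILMN_1233746 was not detected on any hSRY-OFF array and so entered the test through its hSRY-ON arrays alone, at a level at least 1.21-fold higher there (adjusted p = 0.0257). Its call was lost in 6 of the 12 alternatives in which it was fitted, among them no background correction (0.106) and the replicate block (0.0526). The other probe, ILMN_2671259, detected on all arrays, differed by 0.21 (95% interval -0.15 to 0.57, adjusted p = 0.324). *Eif3d* (0.43, adjusted p = 0.0673) and the largest core subunit gene *Eif3a* (0.34, adjusted p = 0.0766) had no overlap between groups and did not pass. *Eif3l* differed by -0.04 and 0.03 on its 2 probes, with intervals inside -0.31 to 0.34, and *Eif3j1* by 0.40 (adjusted p = 0.243).

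Of the scanning and subunit joining factors, 4 of 6 tested probes rose, the 3 of *Eif5* and the 1 of *Eif1a*. Their share of 66.7% stood beside 15.8% of all tested probes. *Eif5* encodes the protein that prompts eIF2 to hydrolyse its GTP at the start codon. ILMN_3151345 read 12.47, 12.35 and 12.49 against 13.02, 12.97 and 13.08 (0.59 ± 0.11 SE, limma's adjusted p = 0.0076), and lost its call only under median scaling (0.053). The other 2 probes rose by 0.71 and 0.53 (adjusted p = 0.0141 and 0.0373), with hSRY-ON replicate 1 the highest array on both. Both calls were lost under median scaling or without hSRY-OFF replicate 2. That of the latter probe, ILMN_3072536, was lost in 8 of 16 alternatives, among them each fit without a single hSRY-OFF array (adjusted p up to 0.158). *Eif1a* read 9.88, 9.93 and 9.93 against 10.29, 10.95 and 10.39 (0.63 ± 0.18 SE, adjusted p = 0.0351), with replicate 2 highest, and leaving out any single hSRY-OFF array ended the call (adjusted p up to 0.112), as did median scaling. Mouse *Eif1a* and *Eif1ax* are near-identical, so a probe may read both. *Eif6*, which keeps ribosomal subunits apart, differed by 0.48 (adjusted p = 0.144) and read 11.35, 10.95 and 11.88 on the hSRY-ON arrays, the last of which was far above its hSRY-OFF values of 10.93, 10.84 and 10.97. The *Eif6* probe passed the threshold in 1 of 16 alternatives (limma's lowest adjusted p = 0.0308). *Eif1b* differed by -0.05 (adjusted p = 0.807).

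In the eIF4 group, 6 of 15 tested probes of 5 genes rose and none fell, with a median of 0.35. The risen share was thus 40%, beside 15.8% of all tested probes. The helicase genes led by p. *Eif4a2* read 12.85, 12.68 and 12.68 against 13.32, 13.22 and 13.26 (0.53 ± 0.12 SE, limma's adjusted p = 0.0123), and *Eif4a1* 10.46, 10.47 and 10.51 against 10.93, 10.95 and 11.30 (0.58 ± 0.14 SE, adjusted p = 0.0171) on one probe, with 0.35 (adjusted p = 0.115) on its brighter probe. *Eif4b*, which stimulates the helicase, read 7.67, 7.72 and 7.66 against 8.56, 8.71 and 7.99 (0.73, adjusted p = 0.0243). None of these overlapped between groups, and hSRY-ON replicate 3 was the low array for *Eif4b* but the high one for *Eif4a1*.

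The cap-binding relatives in the list behaved unevenly between probes. For *Eif4e3* 2 probes rose, by 0.98 and 1.01 (adjusted p = 0.0293 and 0.0382), and ILMN_2893605 read 7.76, 7.94 and 7.46 against 9.44, 8.39 and 8.36. Replicate 1 stood more than 1 log2 unit above the other hSRY-ON arrays there, and the third *Eif4e3* probe, dim and detected on 2 arrays of each group, differed by 0.36 (adjusted p = 0.306). For *Eif4e2* 1 probe rose (0.49, adjusted p = 0.0259) and the others differed by -0.11 and 0.04. The scaffold gene *Eif4g1* differed by -0.21 (95% interval -0.52 to 0.10, adjusted p = 0.25), its relative *Eif4g2* by -0.02 and the helicase partner gene *Eif4h* by 0.31 (adjusted p = 0.0688). Without hSRY-OFF replicate 2 none of the 6 calls of the eIF4 group remained (0 of 6), and without hSRY-OFF replicate 1 there remained 1.

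Among eIF2 and eIF2B genes, with *Eif2a* counted among them, 3 of 9 tested probes rose, none fell and the median was 0.23. The risen 33.3% stood beside 15.8% of all tested probes. *Eif2a*, which encodes the separate initiator tRNA-binding protein eIF2A and no eIF2 subunit, read 10.88, 10.87 and 10.75 against 11.32, 11.32 and 11.28 (0.47 ± 0.11 SE, limma's adjusted p = 0.016). *Eif2b5*, the catalytic subunit of eIF2B, rose on 2 of 3 probes, by 0.38 and 0.34 (adjusted p = 0.0362 and 0.0458), and the third differed by 0.23 (adjusted p = 0.144), all 3 without overlap. The calls of *Eif2b5* were lost when any 1 of the 6 arrays was left out (adjusted p up to 0.13), and that of *Eif2a* narrowly when any single control array was (0.0534 to 0.0558). Median scaling ended all 3 (0.139 to 0.269). *Eif2b2* differed by 0.35 (adjusted p = 0.0829), whereas *Eif2b1* differed by 0.04 and -0.03, *Eif2b4* by -0.11 and the eIF2 beta subunit gene *Eif2s2* by -0.02 (95% interval -0.26 to 0.23). The single probe of *Eif2s1*, the phosphorylated alpha subunit, was not detected on any array.

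The 2 measured eIF2 alpha kinases moved in opposite directions. *Eif2ak1*, the heme-regulated kinase of erythroid cells and liver, read 9.67, 9.61 and 10.10 against 10.75, 10.40 and 10.44 (0.74 ± 0.17 SE, limma's adjusted p = 0.0169). *Eif2ak2*, the double-stranded RNA-activated kinase and an interferon target, read 9.999, 9.89 and 9.89 against 9.49, 8.9995 and 9.58 (-0.57 ± 0.17 SE, adjusted p = 0.0401) and was the only member that fell. Neither pair of groups overlapped. Both calls were lost without hSRY-OFF replicate 1 or 2 or hSRY-ON replicate 1, and that of *Eif2ak2* also without hSRY-OFF replicate 3 or hSRY-ON replicate 2, with adjusted p up to 0.0725 and 0.129. *Eif2ak4*, the amino acid-sensing kinase, was not detected on any array, and *Eif2ak3* had no probe under the rule, nor had *Eif1*. Of the prefix matches with another role, *Ago2* rose (0.61, adjusted p = 0.0244), and *Eef1e1* and *Eif4a3* differed by 0.52 and 0.15 (adjusted p = 0.0682 and 0.439).

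For 12 genes no probe was tested, namely *Eif2s1*, *Eif2ak4*, *Eif3e*, *Eif3h*, *Eif4e1b*, *Eif5a2*, *Eef1a2*, *Ago1*, *Ago3*, *Ago4*, *Eif1ax* and *Eif5b*. Of the 28 untested probes, 27 were detected on no array and 1, of *Eif2s2*, on 2 arrays. Absence of signal on a probe does not show that the message was absent, as *Eef1a1*, *Eef1d*, *Eif3a* and *Eif4g2* each had an undetected probe beside a tested one. Of the 15 genes with more than 1 tested probe, 5 had all their probes called, 5 some and 5 none, and 0 had probes called in both directions. Genes of this family have processed pseudogenes, and the signal of a near-identical copy cannot be told apart here.

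Partners of the factors were described from lists of the same pathway. Of the cap-binding gene and its inhibitors left out by the rule, *Eif4ebp1* rose by 1.49 (adjusted p = 0.00178), *Eif4ebp2* differed by -0.07 and *Eif4e* was not detected. *Eif4ebp3*, also called higher, was detected on no hSRY-OFF array and so entered the test through its hSRY-ON arrays alone. The poly(A)-binding proteins, which join the message end to eIF4G, were higher, with *Pabpc4* at 9.29, 9.04 and 9.59 against 10.81, 10.72 and 10.43 (1.35, adjusted p = 0.00191) and the 3 probes of *Pabpc1* up by 0.71 to 0.90. The poly(A)-binding protein partner *Paip1*, which favours translation, rose by 0.93 (adjusted p = 0.0101) and the inhibitor *Paip2b* fell on both probes by 0.55 and 0.51 (adjusted p = 0.0152 and 0.0367). In that list of 13 tested probes 5 rose and 2 fell, with a median of 0.10. The risen share was 38.5%, beside 15.8% of all tested probes. The fallen share of 15.4% was near the 17.3% of all tested probes. Of the termination factors, *Etf1* rose by 0.44 (adjusted p = 0.026) and *Gspt2* by 0.97 (adjusted p = 0.0318), while *Gspt1* differed by 0.09.

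Among the tested enzymes that act on the factors, 3 of 5 rose (60%, beside 15.8% of all tested probes). *Mknk1* and *Mknk2*, which phosphorylate eIF4E, rose by 0.64 and 0.84 (adjusted p = 0.0131 and 0.0135). *Ppp1r15a*, the inducible subunit that directs a phosphatase to eIF2 alpha, read 9.61, 9.59 and 10.42 against 11.86, 10.90 and 11.25 (1.47 ± 0.31 SE, limma's adjusted p = 0.0109), without overlap. *Mtor* differed by -0.38 (adjusted p = 0.108) and *Ppp1r15b* by 0.27 (adjusted p = 0.205). Of 6 tested probes of the hypusine and diphthamide enzymes, which modify eIF5A and eEF2, 1 rose (*Dph3*, 0.41, adjusted p = 0.0337), a share of 16.7% beside the 15.8% of all tested probes, and their median was 0.33. Under the cytosolic ribosomal protein symbols, 30 of 62 tested probes rose and 1 fell, with a median of 0.38, beside the 30 of 63, 1 and 0.40 of the translation factors. The ribosomal protein shares were 48.4% risen and 1.61% fallen, where 15.8% and 17.3% of all tested probes rose and fell.

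**Figure D4:**
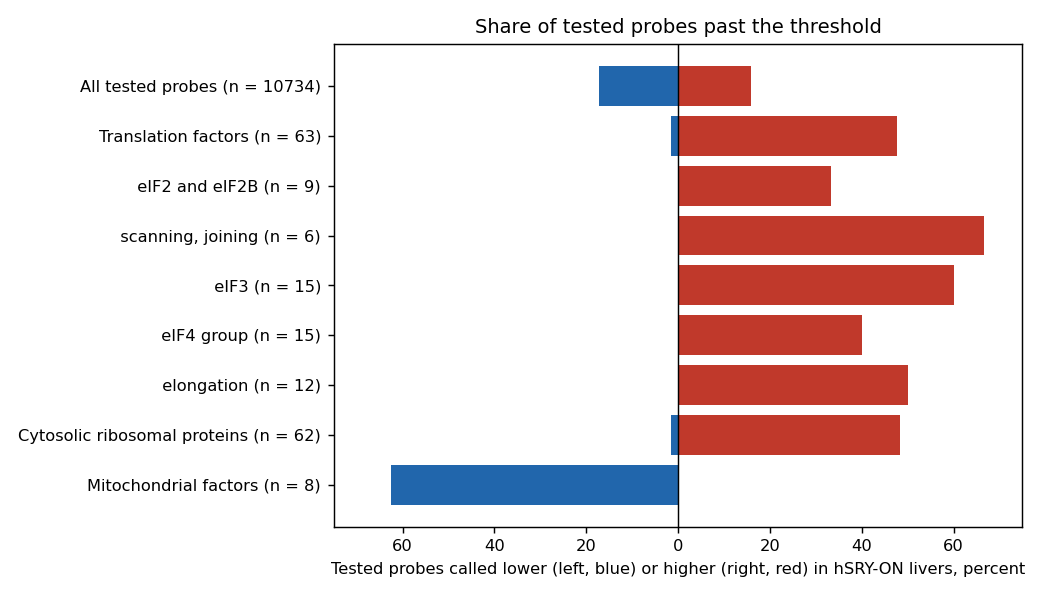
Percent of tested probes called lower (left, blue) or higher (right, red) in hSRY-ON livers for all 10734 tested probes, the 63 translation factor probes and their main complexes, the cytosolic ribosomal proteins and the mitochondrial translation factors (n, tested probes). The risen share was 15.8% over all probes, 47.6% for the translation factors and 0 for the mitochondrial factors. The fallen share was 17.3% over all probes, 1.59% for the translation factors and 62.5% for the mitochondrial factors. The eIF2 and eIF2B bar includes Eif2a, which encodes no eIF2 subunit.

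The factors that serve the mitochondrial ribosome went the other way. None of their 8 tested probes rose and 5 fell (62.5%, where 17.3% of all tested probes fell). All 8 differences were negative and the median was -0.49. *Mtif3*, the mitochondrial initiation factor 3, read 7.82, 7.81 and 7.80 against 7.28, 6.96 and 7.26 (-0.64 ± 0.13 SE, limma's adjusted p = 0.00955) and kept its call in every alternative. *Gfm2*, which recycles mitochondrial ribosomes, fell by 0.58 (adjusted p = 0.0129), and the release factor gene *Mtrf1* fell on both probes by 0.75 and 0.61 (adjusted p = 0.0152 and 0.0247). These 3 calls were lost without hSRY-OFF replicate 1 (adjusted p 0.0596 to 0.0658), and both *Mtrf1* calls also without hSRY-OFF replicate 2. The *Mtrf1* probe with the larger difference lost its call under trimmed-mean scaling as well. The other lost it without hSRY-OFF replicate 3 or hSRY-ON replicate 2 too (adjusted p up to 0.0805).

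Set side by side by step, *Tufm*, the mitochondrial counterpart of eEF1A, read 13.04, 13.02 and 12.91 against 12.76, 12.56 and 12.45 and fell by 0.40 (adjusted p = 0.0466). That call was lost in 7 alternatives. *Gfm1*, the counterpart of eEF2, read 7.04, 7.002 and 6.83 against 6.82, 6.48 and 6.42 (-0.39, adjusted p = 0.0823). *Tsfm*, which exchanges the nucleotide of *Tufm*, differed by -0.11 (adjusted p = 0.491). The difference between the cytosolic and the mitochondrial factors was not itself tested.

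**Figure D5:**
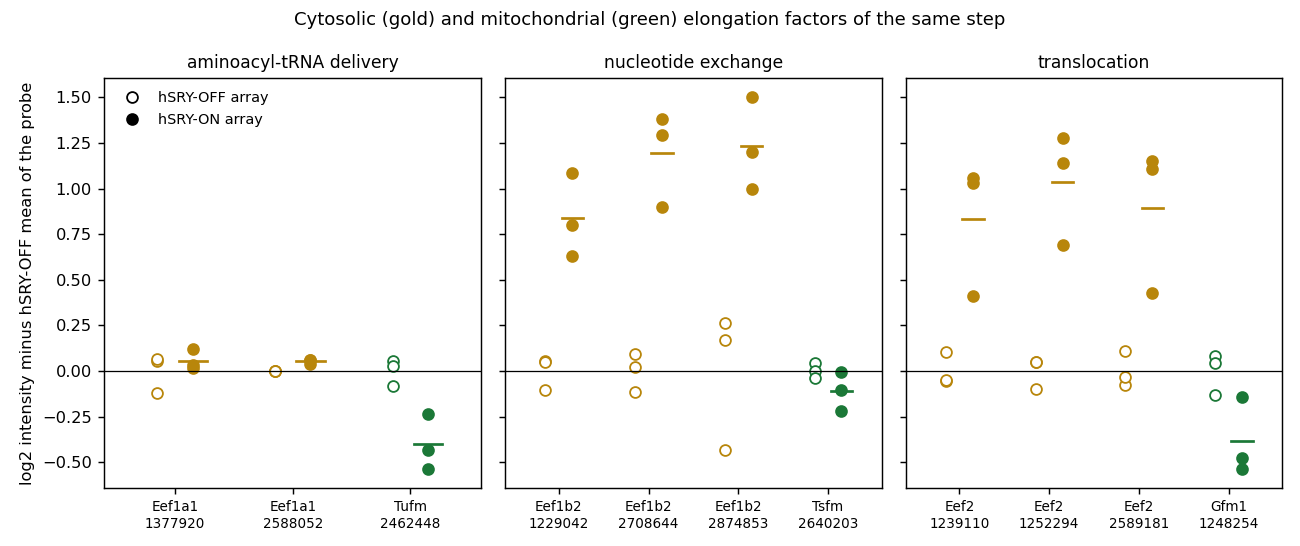
Log2 intensity minus the hSRY-OFF mean of the same probe (vertical axis) on hSRY-OFF (open) and hSRY-ON (filled) arrays for cytosolic elongation factor probes (gold) and their mitochondrial counterparts (green) in 3 steps, with a line at the hSRY-ON mean (n = 3). The 6 probes of Eef1b2 and Eef2 lie above 0 on every hSRY-ON array, and Tufm, Tsfm and Gfm1 lie at or below it.

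Markers of the cells in a neonatal liver were read in the same way, beside the 33.1% of all tested probes that were called. Of 16 tested hepatocyte probes 6 fell and 0 rose (37.5% called), and their summed level, the log2 of the summed intensity, was 18.22 to 18.24 in hSRY-OFF and 18.10 to 18.14 in hSRY-ON livers. Erythroid markers rose on 3 of 11 probes (27.3%, summed level 16.15 to 16.54 against 16.54 to 16.77), among them the heme synthesis gene *Alas2*, with the hemoglobin probe *Hba-a1* at the top of the range on all arrays. Macrophage markers rose on 1 and fell on 4 of 14 (35.7%, 14.44 to 14.60 against 14.00 to 14.70). Those 3 shares, in either direction, lie near the share over all probes, but the directions were uneven. Of hepatocyte probes 37.5% fell, of macrophage probes 28.6% fell and of erythroid probes 27.3% rose. Over all tested probes 17.3% fell and 15.8% rose. Differences were negative for 14 of 16 hepatocyte and 13 of 14 macrophage probes, and positive for 10 of 11 erythroid probes.

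Endothelial markers rose on 6 and fell on 1 of 11 (63.6% called, summed level 13.79 to 14.00 against 14.01 to 14.22). Of 13 stellate probes 5 rose and 3 fell, but 4 of the 5 were of the contractile gene *Acta2*. By gene, *Acta2* and *Des* rose and *Lrat*, *Reln* and *Lum* fell. The stellate summed level was 13.92 to 14.10 against 14.54 to 14.66 with *Acta2*, and 13.65 to 13.88 against 13.26 to 13.51 without it. None of the 12 neutrophil probes was called, and neither was the 1 tested biliary probe. The part of these differences in the translation factor values was not tested.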

How the data were processed

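Per the labels and the methods of the study, liver RNA of 3 hSRY-ON and 3 hSRY-OFF mice was amplified, labelled with biotin and hybridised to Illumina MouseRef-8 arrays. The deposited table gives, per probe and array, a linear-scale bead intensity that the authors left without normalization and a detection p-value. Every value column belonged to a sample (0 without). The submitters' processing notes name limma, and the study names TCC, a package for counts, which was not applied to intensities. Software settings and genome build are not given in the sources used here.

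In R 4.3.3 with limma 3.58.1, background was inferred from the deposited intensity and detection p-values and removed (normexp, function nec, offset 16), arrays were quantile normalized and log2 taken. The offset shrinks differences of dim probes. Probes detected at p under 0.01 on at least 3 of 6 arrays were fitted with lmFit and eBayes, two-sided, with Benjamini-Hochberg adjustment over all 10734. The fit was tested on simulated data, where it called 2.01% of changes of 0.5 log2 units, 43.6% of 1 and 90% of 2. Of the simulated calls 7.16% were false. Far fewer probes were changed there than were called in these data, so those shares do not carry over directly. Raw array medians were 147 to 165 and 10318 to 10762 probes were detected per array. Array pairs correlated at 0.987 to 0.992 within hSRY-OFF, at 0.965 to 0.982 within hSRY-ON and at 0.912 to 0.939 across the groups. Precision is limited by the 3 arrays per group.

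Members and lists were chosen with earlier results of these data known. Symbols were updated through RefSeq. Factor genes listed under unrelated older names were not members. Genes named in any case were *Eif2s1*, *Eif2b5*, the Eif2ak kinases, *Eif1*, *Eif5*, *Eif6*, *Eif3a*, *Eif3e*, *Eif4a1*, *Eif4a2*, *Eif4g1*, *Eif4b*, *Eif5a*, *Eef1a1*, *Eef1a2*, *Eef2* and *Eef2k*, then the 3 called probes with the smallest p of each complex and direction, 1 per gene. Other members and partners named in the report were chosen after their values were seen. Alternatives changed background correction, offset, normalization, filter, variance model, threshold, probes per gene, a replicate block and the arrays included.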

Additional observations from a re-analysis of the deposited data

How the results depend on the processing

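Beside 30 member probes higher and 1 lower, median scaling gave 13 higher, an adjusted p under 0.01 gave 8 higher and 0 lower, and 1 value per gene gave 16 higher of 41 genes. Leaving out 1 array gave 9 to 26 higher and 0 to 1 lower members, and over all tested probes 856 to 1822 higher (from 1700) and 965 to 2125 lower (from 1854). An adjusted p under 0.01 left 693 higher and 972 lower over all tested probes. The median member difference of 0.40 was 0.30 with no background correction, 0.31 with median scaling, 0.27 when trimmed-mean scaling was applied to intensities without background correction, 0.22 with no filter and 0.35 with array weights, and 0.35 to 0.45 leaving out 1 array. The cause of these shifts was not tested, beyond the smaller number of arrays or the dim probes added. No clear pairing of the arrays by replicate number was seen. Deviations of same-numbered arrays correlated at 0.0248, 0.0955 and 0.0523, and not every array correlated best with its own number. With 3 arrays per group these correlations cannot exclude a shared litter or chip. With the number as a replicate block 26 members were higher and 1 lower, the median stayed 0.40, and 1565 and 1645 of all tested probes were called. None of these results reversed. The differences rest on 3 arrays per group, dim probes are shrunk by the offset, and the brightest approach the top of the range.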
